A study of Mus musculus with 12 samples.

Results

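The 45 genes described here encode components of the mouse Wnt pathway: 15 Wnt ligands, 10 Frizzled receptors, the co-receptors *Lrp5* and *Lrp6*, 3 Dishevelled proteins, 4 members of the β-catenin destruction complex, 3 transcription factors, 6 secreted antagonists, the feedback inhibitor *Nkd1* and *Porcn*, the enzyme that acylates Wnt ligands. They were chosen by gene symbol, with no use of their measured values, and all 45 were found by Entrez ID among the 27179 genes of the count table. The count table has 1 hippocampus library for each of 12 mice aged 3 months: 3 female and 3 male WT mice, and 3 female and 3 male *Nell-1+/6R* littermates. *Nell-1+/6R* mice carry 1 copy of an ENU-induced loss-of-function allele of *Nell1* in all their cells, from conception on, and 1 normal copy. The comparison asked whether the loss of 1 *Nell1* copy changed the RNA level of Wnt pathway genes in this brain region, and whether females and males differed in this.

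Wnt ligands are secreted lipid-modified glycoproteins that bind a Frizzled receptor together with Lrp5 or Lrp6 on the receiving cell. Through Dishevelled, this stops the complex of Axin, Apc and Gsk3b from marking β-catenin for destruction, and β-catenin then enters the nucleus and acts with Lef1 and the Tcf factors. In the hippocampus, Wnt signals are known for roles in the formation of the structure, in the birth of neurons in the dentate gyrus, and in the growth of axons and synapses. Sfrp and Dkk proteins are secreted and hold the signal back.

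The libraries held 10834905 to 16016317 counted reads each. *Nell1* (Entrez 338352) lay at 17.2 to 20.8 CPM in the *Nell-1+/6R* mice and at 30.6 to 44.01 CPM in the WT mice, with no overlap, with a log2 fold change of -0.93 ± 0.08 (SE, adjusted p = 0.00015, edgeR quasi-likelihood test). CPM is the read count of a gene relative to all counted reads of the library, here scaled with TMM factors, which allow for differences in library composition. The whole hippocampus was sequenced in bulk, so fewer cells of a type and less RNA per cell cannot be told apart in any value below. The libraries also differed in RNA of marker genes of tissue that borders the hippocampus. Genes that the study published as changed had been left out of all marker lists. Counts of markers past a p threshold were thus shaped in advance. The 10 choroid plexus markers summed to 2122 CPM in female WT replicate 1, 4707 CPM in male WT replicate 3, 5207 CPM in female *Nell-1+/6R* replicate 1 and 801 CPM in female WT replicate 2, against 45.9 to 135 CPM in the other 8 mice.

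Of the 45 members, 44 passed the filter of at least 0.2 CPM in at least 2 mice. The exception was *Dkk1*, an inhibitor of the Lrp co-receptors, which had 2 reads in all, 1 in each of 2 *Nell-1+/6R* mice, and 0 in the 6 WT mice, where a count of 0 allows up to 3. To compare genes with each other, CPM were divided by the length of the gene's merged exons in kb, and this level is given for WT mice as mean ± SD (n = 6). By this measure the members past the filter spanned a 151-fold range, and 30 of the 45 were at 1 CPM per kb or more.

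Among the ligands, *Wnt7b*, which acts in dendrite growth and in brain vessel formation, had the highest level per kb at 14.3 CPM per kb, which was 39.2% of the summed level per kb of the 15 ligands. *Wnt7a*, its close relative, followed at 5.55 CPM per kb and 15.2% of the sum. *Wnt9a* (3.36), *Wnt4* (3.31), *Wnt2* (2.21), *Wnt10a* (1.96), *Wnt5a* (1.205) and *Wnt5b* (1.10 CPM per kb) formed the middle of the range. The other 7 ligands lay below 1 CPM per kb, from *Wnt3* at 0.965 down to *Wnt8b* at 0.179 CPM per kb, and *Wnt1*, *Wnt8b* and *Wnt10b* had on average under 10 reads per mouse. The receptors were more even. *Fzd2* led with 5.64 CPM per kb and 23.4% of the summed level per kb of the 10 Frizzled genes, followed by *Fzd3*, known for axon guidance, at 4.21, *Fzd1* at 3.53, *Fzd9*, known for its expression in the hippocampus, at 3.06, and *Fzd7* at 3.01 CPM per kb. *Fzd10* at 0.882 and *Fzd5* at 0.377 CPM per kb were the lowest.

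Inside the cell, levels per kb varied by role. *Dvl1* stood at 26.5, *Dvl3* at 9.30 and *Dvl2* at 4.58 CPM per kb, so that *Dvl1* made up 65.7% of the summed Dishevelled level per kb. *Gsk3b*, the kinase that marks β-catenin, stood at 15.1, the scaffold *Apc* at 12.4, *Axin1* at 10.03 and *Axin2*, itself a target of the pathway, at 7.09 CPM per kb. *Lrp6* and *Lrp5* were at 2.63 and 2.05 CPM per kb. The transcription factors were low, with *Tcf7l1* at 1.77, *Tcf7* at 1.33 and *Lef1* at 0.679 CPM per kb. Of the antagonists, *Sfrp1* was the highest at 2.74 CPM per kb, and the other 4 past the filter lay at 0.227 to 0.799 CPM per kb. *Porcn* was at 27.0 CPM per kb, the highest level per kb of all 45 members.

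**Figure D1:**
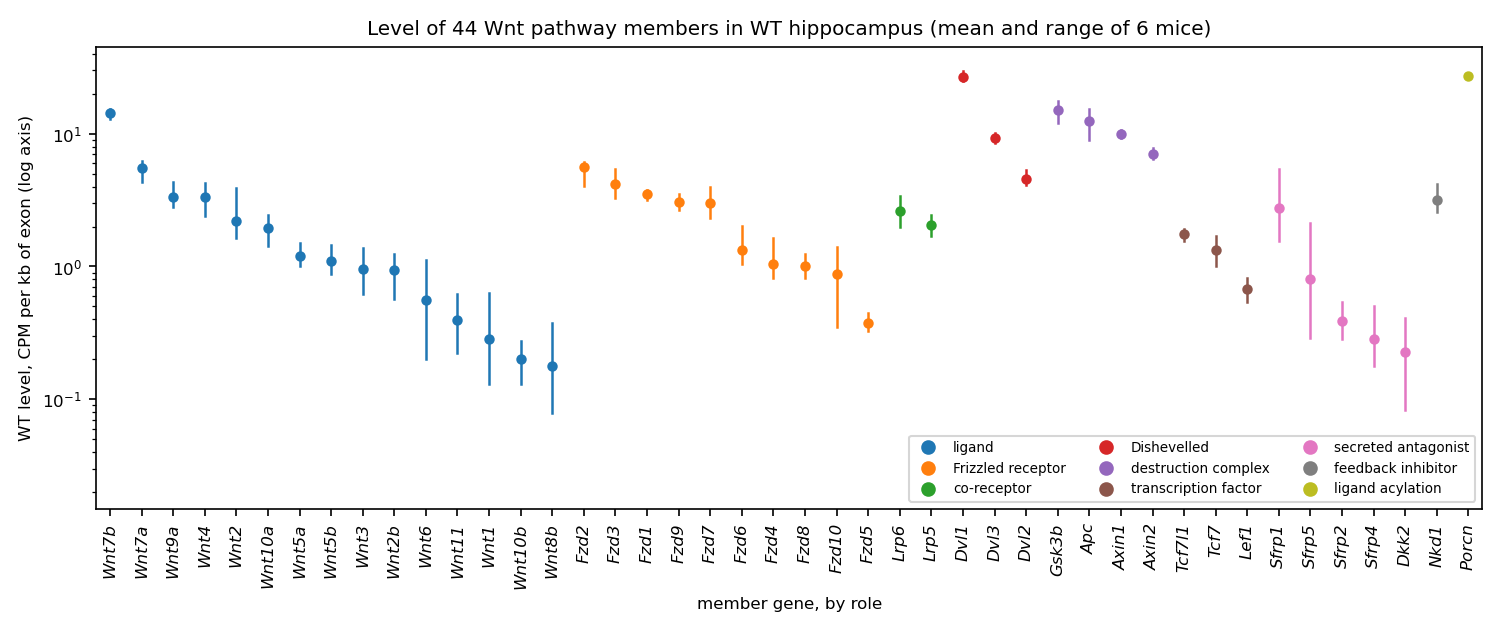
Level of the 44 members past the filter in WT hippocampus, in CPM per kb of merged exon on a log axis, grouped and coloured by role and ordered by level within a role. Points are means and lines run from the lowest to the highest of 6 mice. *Porcn*, *Dvl1*, *Gsk3b* and *Wnt7b* lie highest, and the lines are longest for low ligands and for *Sfrp5*.

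The spread between WT mice also differed by member. The standard deviation of the CPM was 4.74% of the mean for *Porcn*, 5.12% for *Axin1*, 6.13% for *Dvl1* and 7.32% for *Wnt7b*, whereas it was 92.3% for *Sfrp5*, 52.3% for *Sfrp1*, 57.7% for *Wnt6* and 45.2% for *Fzd10*.

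Between genotypes, the levels of most members differed by less than the mice of 1 genotype differed among themselves. With edgeR's quasi-likelihood test and sex in the model, 0 of 44 members passed the thresholds of the study, an unadjusted p under 0.05 with a fold change above 1.5, where 1.46% of the 17937 genes tested did. At an adjusted p under 0.05 there were also 0 members, against 0.039% of all genes, and DESeq2 and limma-voom gave 0 as well. At an unadjusted p under 0.05 alone there were 2 members, *Fzd5* and *Fzd6*, both lower in *Nell-1+/6R* mice, where 2.2% of all genes were lower at this p and 3.26% differed in either direction. No member separated the 6 *Nell-1+/6R* mice from the 6 WT mice without overlap, as 0.151% of all genes did. The median log2 fold change of the 44 members was -0.07, and that of all genes tested was -0.00. Of the members, 31 had a value below 0 and 13 above 0, whereas 50.3% of all genes lay below 0.

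For 25 of the 44 members the 95% interval of the fold change lay wholly within a 1.5-fold change in either direction, against 69.5% of all genes. These 25 included all 3 Dishevelled genes, all 4 members of the destruction complex, both co-receptors, all 3 transcription factors, *Nkd1* and *Porcn*, together with 6 of 10 Frizzled genes and 5 of 15 ligands. For the other 10 ligands, 4 receptors and all 5 tested antagonists, a change above 1.5-fold in at least 1 direction lay inside the interval.

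**Figure D2:**
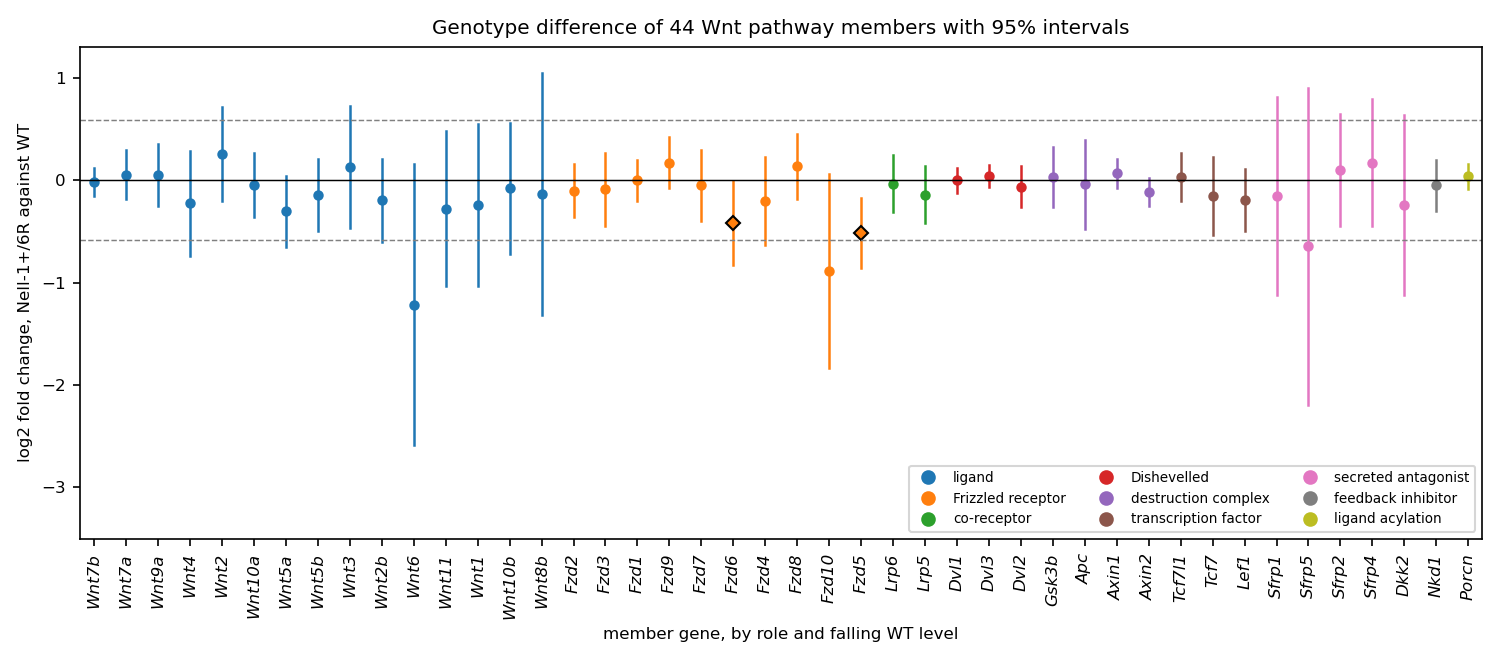
Log2 fold change of *Nell-1+/6R* against WT for the 44 members, with 95% intervals from the edgeR quasi-likelihood fit, grouped by role and ordered by falling WT level. Dashed lines mark 1.5-fold, and outlined diamonds mark *Fzd5* and *Fzd6*, the 2 members with an unadjusted p under 0.05, both below 0.

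Among the Frizzled receptors, 8 of 10 had a log2 fold change below 0, with a median of -0.10 over the 10 genes. *Fzd5* (Entrez 14367, chr1:64730558-64737750, mm10), a receptor known for roles in eye development and the yolk sac vessels, had the lowest p of the 44 members in this comparison. Its CPM ran from 2.25 through a median of 2.56 to 3.08 among WT mice and from 1.39 through 1.75 to 2.26 among *Nell-1+/6R* mice (n = 6 each). The ranges touched only at their ends, where female *Nell-1+/6R* replicate 3 was just above female WT replicate 3. The log2 fold change was -0.51 ± 0.16 (SE, 95% interval -0.85 to -0.17, unadjusted p = 0.00621, adjusted p = 1.00, edgeR), from 17 to 38 reads per mouse. It was similar in females (-0.48 ± 0.23) and males (-0.55 ± 0.23), and the difference between the sexes of -0.07 had a 95% interval of -0.79 to 0.65.

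*Fzd6* (Entrez 14368, chr15:39006149-39038192), known for roles in planar cell polarity and hair patterning, ran from 4.99 through a median of 6.15 to 9.67 CPM in WT mice and from 3.45 through 4.73 to 6.06 CPM in *Nell-1+/6R* mice. The ranges overlapped broadly, and male WT replicate 3 lay well above all other mice. The log2 fold change was -0.42 ± 0.19 (SE, unadjusted p = 0.0451, adjusted p = 1.00, edgeR). It was -0.19 ± 0.26 in females and -0.65 ± 0.27 in males, with an interaction p of 0.243 in edgeR. Leaving out 1 mouse at a time, *Fzd5* kept an unadjusted p under 0.05 in 12 of 12 fits and *Fzd6* in 5 of 12.

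Both receptors lost this p when a score of thalamus and habenula markers or of leptomeningeal markers was added to the model. With the thalamus and habenula score, *Fzd5* was at -0.35 (unadjusted p = 0.064, edgeR) and *Fzd6* at -0.16 (unadjusted p = 0.42). *Fzd6* CPM and this score had r = 0.657 (permutation p = 0.0238, adjusted over 12 relations p = 0.0952) and rho = 0.357 (permutation p = 0.256, adjusted p = 0.492), with r = 0.427 when the 2 mice of most extreme score were left out. *Fzd6* also lost it with the choroid plexus score, a covariate added after seeing the data (-0.31, unadjusted p = 0.12, edgeR), and its highest mouse, male WT replicate 3, is 1 of the 3 with the highest choroid plexus sums. *Fzd6* CPM and the choroid plexus score had r = 0.569 (permutation p = 0.0493, adjusted p = 0.148) and rho = 0.259 (permutation p = 0.417, adjusted p = 0.5), with r = 0.149 when the 2 mice of most extreme score were left out. With the leptomeningeal score, *Fzd5* was at -0.39 (unadjusted p = 0.0591, edgeR) and *Fzd6* at -0.41 (unadjusted p = 0.102). Of the 9 thalamus and habenula markers, 8 passed the filter, 2 were lower in *Nell-1+/6R* mice at an unadjusted p under 0.05 (edgeR), and 1 was at 0 in some mouse. They summed to 121 to 154 CPM in WT mice and 108 to 131 CPM in *Nell-1+/6R* mice, with medians of 126 and 125 CPM. The highest sum, 154 CPM, was that of male WT replicate 3. Across the 12 mice, *Fzd5* CPM and this score were correlated, with Pearson's r = 0.799 (permutation p = 0.00156, adjusted over 12 relations p = 0.00936) and Spearman's rho = 0.664 (permutation p = 0.0213, adjusted p = 0.0854). Within genotypes r was 0.852 for WT (n = 6) and 0.733 for *Nell-1+/6R* (n = 6), and with the 2 mice of most extreme score left out it was 0.581. The 12 relations are those of *Wnt6*, *Fzd5*, *Fzd6* and *Fzd10* with 3 marker scores, and they were chosen after these values had been seen. The part of such tissue in the *Fzd5* and *Fzd6* values was not tested beyond these fits.

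The other named receptors differed little by genotype. *Fzd2* ran from 14.8 through 21.6 to 22.4 CPM in WT and from 14.3 through 20.2 to 22.7 CPM in *Nell-1+/6R* mice, with a log2 fold change of -0.10 ± 0.12. *Fzd9* had the third highest fold change among the members with at least 10 reads per mouse on average, at 0.17 ± 0.12, with 6.09 through 6.92 to 8.13 CPM in WT and 6.09 through 8.40 to 8.74 CPM in *Nell-1+/6R* mice. In both genes the ranges of the genotypes overlapped over most of their length, though the *Fzd9* median in *Nell-1+/6R* mice lay above the highest WT mouse.

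*Fzd10* (Entrez 93897, chr5:128601106-128604093) had the lowest p of the 44 members for a genotype difference that depends on sex. It is a Frizzled receptor with restricted expression, known from the embryonic dorsal neural tube. Female WT mice had 2.14, 4.56 and 3.00 CPM, and female *Nell-1+/6R* mice 3.83, 2.61 and 3.11 CPM. Male WT mice had 2.23, 4.14 and 1.14 CPM, and male *Nell-1+/6R* mice 0.271, 0.294 and 0.950 CPM. The 3 male *Nell-1+/6R* mice were thus below each of the other 9 mice, with 4, 4 and 12 reads against 13 to 59. In males the log2 fold change of *Nell-1+/6R* against WT was -2.33 ± 0.55 (SE, unadjusted p = 0.000997, adjusted p = 1.00, edgeR). In females it was -0.01 ± 0.43 (unadjusted p = 0.984). The difference between the 2 was -2.32 ± 0.70 (95% interval -3.84 to -0.81, unadjusted p = 0.00569, adjusted p = 0.987, edgeR interaction).

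*Fzd10* was the 1 member of 44 past the thresholds between sexes, where 1.35% of all genes were, with a log2 fold change of males against females of -1.29 ± 0.44 (unadjusted p = 0.0115, adjusted p = 0.868, edgeR). Among WT mice the mean ± SD was 3.23 ± 1.22 CPM for the 3 females and 2.50 ± 1.52 CPM for the 3 males, whereas among *Nell-1+/6R* mice it was 3.18 ± 0.616 CPM for the 3 females and 0.505 ± 0.386 CPM for the 3 males. The sexes thus lay further apart in *Nell-1+/6R* mice, which is the interaction given above and no separate result. Over both sexes, its genotype difference was -0.89 ± 0.44 (unadjusted p = 0.0638, edgeR), and whether it passed the study's thresholds depended on the setting. It passed with DESeq2 (-1.05, unadjusted p = 0.0199), without the 3 mice with the highest choroid plexus score (-1.38, unadjusted p = 0.0102, edgeR, a setting added after seeing the data) and in 3 of the 12 edgeR fits that left out a mouse, and did not with limma-voom with sex (-0.58, unadjusted p = 0.193), limma-voom with genotype alone (-1.17, unadjusted p = 0.0605) or edgeR with genotype alone (-0.65, unadjusted p = 0.234). The adjusted p was 1.00 in each of the 5 fits whose values are given here as alternatives. The interaction kept an unadjusted p under 0.05 in all 24 alternative fits that gave one, among them the 12 that left out 1 mouse, where it ran from -3.11 to -1.74. Its adjusted p was between 0.479 and 1.00 over these fits. The choroid plexus markers, 10 of 10 detected in every mouse, summed to 132 to 4707 CPM in male WT mice and 48.0 to 80.9 CPM in male *Nell-1+/6R* mice, and the leptomeningeal markers to 233 to 438 and 146 to 200 CPM. The leptomeningeal list holds *Igf2*, which the choroid plexus also makes and which was 281 of the 438 CPM in male WT replicate 3. Without it the other 13 markers summed to 153 to 182 CPM in male WT and 116 to 151 CPM in male *Nell-1+/6R* mice. Over the 12 mice, *Fzd10* CPM and the leptomeningeal score had r = 0.487 (permutation p = 0.108, adjusted over the 12 relations p = 0.216) and rho = 0.517 (permutation p = 0.0889, adjusted p = 0.267), with r = 0.775 when the 2 mice of most extreme score were left out and r of 0.080 in WT and 0.578 in *Nell-1+/6R* mice (n = 6 each). With the choroid plexus score r was 0.245 (permutation p = 0.44, adjusted p = 0.587) and rho 0.273 (permutation p = 0.393, adjusted p = 0.5), with r = 0.374 when the 2 mice farthest out on that score were left out. In edgeR the interaction was -2.42 with the choroid plexus score as a covariate (unadjusted p = 0.00508). Without the 3 mice with the highest choroid plexus score it was -2.27 (unadjusted p = 0.00663). The part of such tissue in the *Fzd10* difference was not tested beyond the fits with these scores.

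The upstream sequences of *Fzd5* and *Fzd10*, the receptors with the lowest p for genotype and for the interaction, are shown so that a reader can see what lies before their start sites. Each is the 250 bases before the annotated start in the RefSeq annotation of GRCm38.p6 (mm10), in the direction of transcription. GC boxes (GGGCGG or its reverse complement CCGCCC) are in capitals. The first is chr1:64737751-64738000 on the minus strand and the second chr5:128600856-128601105 on the plus strand.
Fzd5: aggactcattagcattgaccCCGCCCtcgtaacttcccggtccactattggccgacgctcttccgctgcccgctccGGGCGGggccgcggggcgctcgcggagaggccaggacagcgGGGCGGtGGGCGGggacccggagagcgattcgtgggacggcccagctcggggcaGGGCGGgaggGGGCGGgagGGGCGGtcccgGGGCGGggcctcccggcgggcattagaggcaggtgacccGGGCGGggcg
Fzd10: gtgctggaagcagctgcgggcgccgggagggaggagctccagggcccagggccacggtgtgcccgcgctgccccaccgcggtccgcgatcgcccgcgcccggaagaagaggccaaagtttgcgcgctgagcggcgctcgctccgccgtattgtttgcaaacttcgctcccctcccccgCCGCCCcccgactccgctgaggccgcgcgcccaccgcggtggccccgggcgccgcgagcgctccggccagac
Both windows are 76.4% G or C, against a median of 52.4% over all upstream windows. *Fzd5* holds 9 GC boxes and *Fzd10* holds 1. A GC box on either strand occurs in 32.7% of the 32851 upstream windows of this length and in 28 of the 38 windows of the members, which belong to the 31 members that have one in the table. The core LEF/TCF letters CTTTGAT, on either strand, occur in 3.21% of all windows and in 2 of these 38, of *Wnt5b* and *Wnt11*, and in neither window above.

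Of the 15 ligands, 11 had a log2 fold change below 0, with a median of -0.13, and none had an unadjusted p under 0.05 for genotype, sex or interaction. *Wnt6* (Entrez 22420, chr1:74754342-74785322), a ligand known from epithelia and mesenchyme, is shown because the study names it among its most downregulated genes. This is no independent evidence of its direction, as the study chose it on these mice. WT mice had 0.439 to 2.44 CPM with a median of 1.14, and in *Nell-1+/6R* mice it lay at 0 to 1.63 CPM, with the median at 0.216. The ranges overlapped, with the highest *Nell-1+/6R* value, in female replicate 3, above 5 of the 6 WT mice. The log2 fold change was -1.22 ± 0.64 (SE, 95% interval -2.59 to 0.16, unadjusted p = 0.0777, adjusted p = 1.00, edgeR), from 0 to 40 reads per mouse. The study's methods name limma-voom along with quasi-likelihood F-tests. With limma-voom the log2 fold change was -1.96 with sex in the model (unadjusted p = 0.0169) and -1.97 without (unadjusted p = 0.0132), both past the study's thresholds.

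*Wnt6* varied together with markers of the leptomeninges, the thin membranes on the brain surface. The score, the mean log2 CPM of 14 leptomeningeal markers about their mean over the mice, was highest in replicate 1 of the female WT mice (0.86), replicate 3 of the female *Nell-1+/6R* mice (0.43) and male WT replicate 2 (0.39), and these 3 mice also had the highest *Wnt6* at 2.44, 1.63 and 1.52 CPM. It was lowest in female *Nell-1+/6R* replicate 2 (-0.65) and male *Nell-1+/6R* replicate 1 (-0.63), where *Wnt6* was at 0 and 0.203 CPM. Over the 12 mice Pearson's r was 0.883 (permutation p = 0.00019, adjusted over the 12 relations p = 0.00228) and Spearman's rho was 0.881 (permutation p = 0.00032, adjusted p = 0.00384). Within genotypes r was 0.900 in WT and 0.796 in *Nell-1+/6R* mice (n = 6 each), and r fell to 0.764 with the 2 mice of most extreme score left out. Of the 14 leptomeningeal markers 14 passed the filter, 13 had a log2 fold change below 0 and 4 were lower in *Nell-1+/6R* mice at an unadjusted p under 0.05, and none was at 0 in any mouse. They summed to 193 to 524 CPM over the WT and 143 to 474 CPM over the *Nell-1+/6R* mice, and without *Igf2* to 139 to 301 and 105 to 188 CPM. With the score in the model, the log2 fold change of *Wnt6* was -0.17 (unadjusted p = 0.754, edgeR). The score itself had a median of 0.19 in WT and -0.32 in *Nell-1+/6R* mice, so this fit cannot separate the score from genotype. The part of such tissue in the *Wnt6* difference was not tested beyond this fit.

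**Figure D3:**
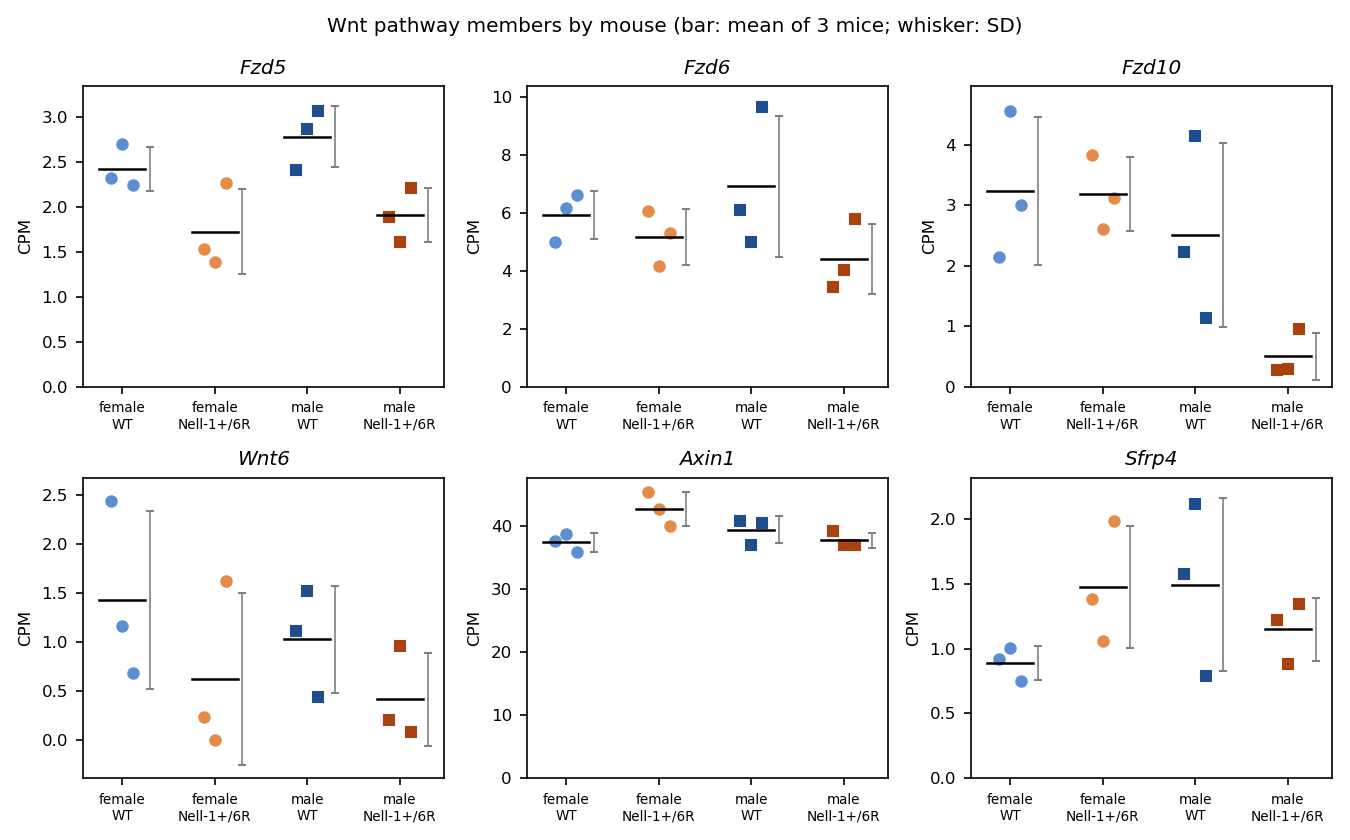
CPM of 6 members in each of the 12 mice, in 4 groups of 3, with bars at the group mean and whiskers of 1 SD. The 3 male *Nell-1+/6R* mice lie below all others for *Fzd10*, whereas for *Fzd5* both sexes show lower *Nell-1+/6R* values and for *Wnt6* single mice set the group means.

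The other ligands differed less by genotype. *Wnt7b* (Entrez 22422), the most abundant per kb, ran from 62.7 through 70.8 to 75.2 CPM in WT mice and from 59.8 through 70.1 to 74.7 CPM in *Nell-1+/6R* mice. Its log2 fold change was -0.02 ± 0.06 with a 95% interval of -0.16 to 0.12. *Wnt2*, known for roles in vessels and in the growth of dendrites, had the highest fold change of the 44, at 0.25 ± 0.21 (unadjusted p = 0.254). Its range was 3.72 through 4.404 to 8.73 CPM in WT and 4.33 through 5.50 to 7.97 CPM in *Nell-1+/6R* mice, and the highest of all 12 mice, female WT replicate 2, was a WT mouse. *Wnt5a*, the main ligand of the β-catenin independent branch, had a log2 fold change of -0.30 ± 0.16 (unadjusted p = 0.0818), and is named here after its value was seen.

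Of the members inside the cell, none had an unadjusted p under 0.05 for genotype. *Dvl1* ran from 125 through 131 to 148 CPM in WT and from 124 through 132 to 143 CPM in *Nell-1+/6R* mice, with a log2 fold change of 0.00 ± 0.06. *Gsk3b* ran from 119 through 153 to 174 CPM in WT and from 110 through 151 to 206 CPM in *Nell-1+/6R* mice, at 0.03 ± 0.14. *Tcf7l1*, which mostly represses targets of the pathway, ran from 6.11 through 7.17 to 7.47 CPM and from 5.88 through 7.37 to 7.92 CPM, at 0.03 ± 0.11. In each of the 3 the ranges of the genotypes overlapped, and for *Gsk3b* and *Tcf7l1* the *Nell-1+/6R* range reached further at both ends. *Axin2*, widely used as a readout of β-catenin signalling, was at 39.0 ± 2.86 CPM (SD) in the 6 WT and 35.9 ± 1.91 CPM (SD) in the 6 *Nell-1+/6R* mice, with a fold change on the log2 scale of -0.12 ± 0.06 (unadjusted p = 0.0819, 95% interval -0.26 to 0.02, edgeR).

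*Axin1* (Entrez 12005, chr17:26131217-26195811), the scaffold of the destruction complex, was the second member whose genotype difference depended on sex at an unadjusted p under 0.05. Female WT mice had 37.6, 38.8 and 35.8 CPM and female *Nell-1+/6R* mice 45.4, 42.7 and 40.1 CPM, with no overlap between these groups of 3. Among all genes tested, 6% separated the female groups of 3 in this way and 10.4% the male groups, against 2 of 44 members in females (*Axin1* and *Sfrp4*) and 4 of 44 in males (*Wnt8b*, *Fzd5*, *Fzd10* and *Sfrp5*), shares near those of all genes. Male WT mice had 40.8, 37.0 and 40.4 CPM and male *Nell-1+/6R* mice 39.2, 36.9 and 37.1 CPM, which overlap. The log2 fold change was 0.19 ± 0.08 in females (unadjusted p = 0.0344, edgeR) and -0.06 ± 0.08 in males. The difference of -0.25 ± 0.11 had an unadjusted p of 0.0459 and an adjusted p of 0.987, and kept an unadjusted p under 0.05 in 4 of the 12 fits that left out a mouse. It was also lost with the choroid plexus score (-0.21, unadjusted p = 0.0931, edgeR) and without the 3 mice with the highest choroid plexus score (-0.17, unadjusted p = 0.273), both in edgeR. The female effect was 0.20 with the score (unadjusted p = 0.0271, edgeR) and 0.14 without the 3 mice (unadjusted p = 0.228). Over all 6 mice of each genotype *Axin1* ran from 35.8 through 38.2 to 40.8 CPM in WT and from 36.9 through 39.6 to 45.4 CPM in *Nell-1+/6R* mice, at 0.07 ± 0.06.

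*Sfrp4* (Entrez 20379, chr13:19623175-19632825), a secreted binder of Wnt ligands, was the third. Female WT mice had 0.917, 1.00 and 0.750 CPM and female *Nell-1+/6R* mice 1.38, 1.06 and 1.98 CPM. Male WT mice had 1.58, 2.11 and 0.791 CPM and male *Nell-1+/6R* mice 1.22, 0.881 and 1.35 CPM. The female groups did not overlap, as for 6% of all genes, and the male groups did. The log2 fold change was 0.73 ± 0.36 in females and -0.38 ± 0.36 in males, and the difference of -1.11 ± 0.51 had an unadjusted p of 0.0495 and an adjusted p of 0.987 (edgeR), from 9 to 28 reads per mouse. It kept this p in 3 of the 12 fits that left out a mouse. With *Fzd10* and *Axin1* this makes 3 of 44 members with an unadjusted p under 0.05 for the interaction, where 3.09% of all genes had one, and 0 members at an adjusted p under 0.05, as 0% of all genes did.

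**Figure D4:**
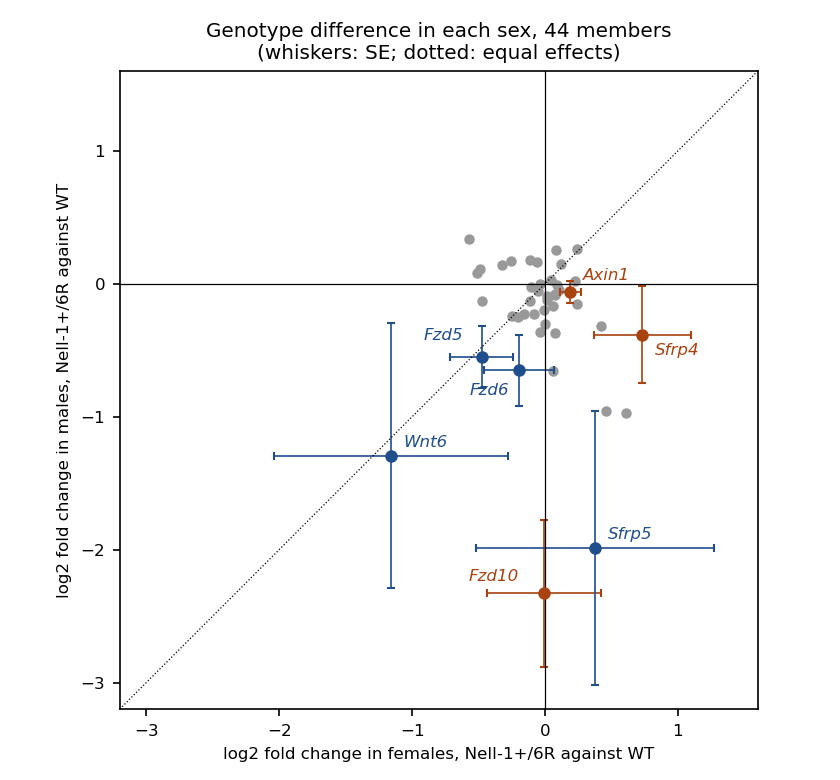
Log2 fold change of *Nell-1+/6R* against WT in females (x axis) and males (y axis) for the 44 members, with SE whiskers for 7 of them and a dotted line of equal effects. *Fzd10*, *Axin1* and *Sfrp4*, in brown, have an unadjusted p under 0.05 for the difference. *Fzd5* lies on the dotted line and *Fzd10* lies far below it, with values of -0.01 in females and -2.33 in males.

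Taken within each sex, 3 of 44 members had an unadjusted p under 0.05 in males (*Fzd5*, *Fzd6* and *Fzd10*), all lower in *Nell-1+/6R* mice, where 2.28% of all genes were. *Fzd10* kept this p in males in 24 of 24 alternative fits, *Fzd6* in 17 and *Fzd5* in 14. Without male WT replicate 3, *Fzd6* in males was at -0.32 (unadjusted p = 0.235, edgeR). In females there was 1 (*Axin1*), which was higher, where 1.24% of all genes were, and it kept this p in 16 of 24 fits. At an adjusted p under 0.05 there were 0 in either sex (edgeR).

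Among the secreted antagonists, *Sfrp1* and *Sfrp5* varied widely between mice. *Sfrp1* had 6.77 to 23.9 CPM in WT mice with a median of 10.9 and a median of 7.36 CPM among *Nell-1+/6R* mice, which ran from 5.21 to 32.4 CPM. *Sfrp5* had 0.546 to 4.04 CPM in WT mice with a median of 0.752 and a median of 0.424 CPM among *Nell-1+/6R* mice, which ran from 0.283 to 4.06 CPM. Both were highest in the same 2 mice, male WT replicate 3 and female *Nell-1+/6R* replicate 1, which also had the 2 highest choroid plexus sums (4707 and 5207 CPM). *Sfrp5* was next highest in female WT replicate 1, at 2.32 CPM, the mouse with the third highest sum (2122 CPM), and was at or below 0.761 CPM in the other 9 mice. *Fzd7*, named after its values were seen, was highest in the same 3 mice, at 17.9, 18.5 and 17.2 CPM, against 10.5 to 14.2 CPM in the other 9.

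The log2 fold change was -0.16 ± 0.45 for *Sfrp1* and -0.65 ± 0.72 for *Sfrp5*, with unadjusted p of 0.734 and 0.385 in edgeR. Both rested on single mice: they were at -0.77 and -1.92 without female *Nell-1+/6R* replicate 1 (unadjusted p = 0.0161 and 0.00463, adjusted p = 0.881 and 0.788, edgeR) and at 0.22 and 0.03 without male WT replicate 3. All 10 choroid plexus markers had a log2 fold change below 0, with a median of -1.10, and 0 of 10 passed an unadjusted p of 0.05 for genotype. Leaving published changed genes out of the list made such a pass less likely in advance. Their sum ran from 54.3 to 4707 CPM in WT and from 45.9 to 5207 CPM in *Nell-1+/6R* mice. Without the 3 mice with the highest choroid plexus score, *Sfrp5* was at -0.75 (unadjusted p = 0.0414, edgeR) and *Sfrp1* at -0.38 (unadjusted p = 0.106). With the score as a covariate in all 12 mice, *Sfrp5* was at 0.06 and *Sfrp1* at 0.27, so the sign of both depended on how the choroid plexus signal was treated.

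**Figure D5:**
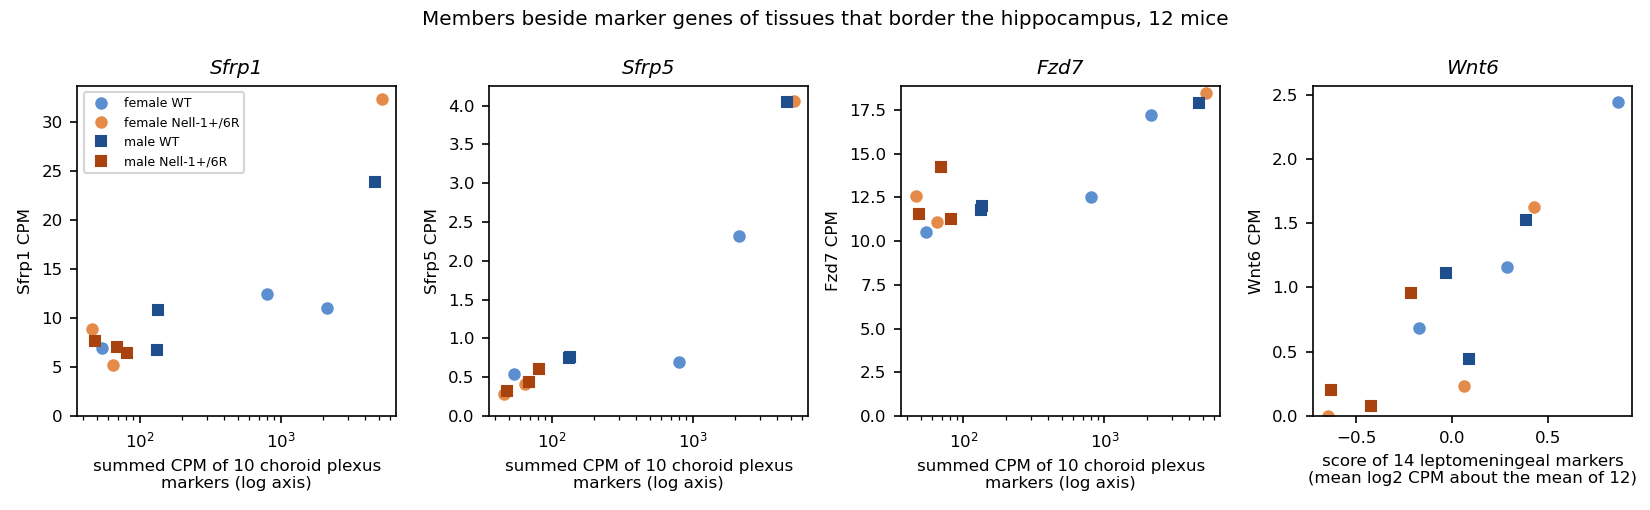
CPM of *Sfrp1*, *Sfrp5* and *Fzd7* against the summed CPM of 10 choroid plexus markers (log axis), and of *Wnt6* against the leptomeningeal score, 1 point per mouse, coloured by genotype and shaped by sex. *Sfrp5* and *Fzd7* are highest in the 3 mice with sums of 2122 to 5207 CPM, and *Wnt6* is highest in the mouse with the highest score (0.86).

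Beyond the 45 members, 65 other genes of the pathway were looked up from lists, among them R-spondins, further antagonists, nuclear partners of β-catenin, planar polarity genes and common targets, and 62 passed the filter. Their median log2 fold change was -0.02. At an unadjusted p under 0.05, 3 of the 62 were lower in *Nell-1+/6R* mice and 0 higher, where 2.2% of all genes were lower and 3.26% differed in either direction, and 0 had an adjusted p under 0.05 in edgeR. These were *Rnf43*, a ubiquitin ligase that removes Frizzled receptors (-0.40 ± 0.15, unadjusted p = 0.0208), *Notum*, an enzyme that strips the lipid from Wnt ligands (-0.39 ± 0.17, unadjusted p = 0.0354), and *Wif1*, a secreted inhibitor (-0.64 ± 0.29, unadjusted p = 0.048, all by edgeR). *Rnf43* was at 5.57 ± 1.08 CPM in WT against 4.22 ± 0.723 CPM in *Nell-1+/6R* mice, *Notum* at 2.77 ± 0.518 against 2.12 ± 0.374 CPM, and *Wif1* at 0.637 ± 0.311 against 0.405 ± 0.198 CPM (mean ± SD, n = 6). Only *Wif1* was past the study's thresholds, with 84 reads in all.

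Between the sexes, *Wif1* (-1.10 ± 0.30, unadjusted p = 0.00256) and *Kremen2*, a partner of the Dkk proteins (-0.63 ± 0.28, unadjusted p = 0.0445), were lower in males, and *Lgr5*, a receptor for R-spondins, was higher (0.75 ± 0.34, unadjusted p = 0.0435, edgeR). These were 3 of the 62 at an unadjusted p under 0.05, where 4.72% of all genes were, each with an adjusted p of 0.868. For the interaction, 4 of the 62 had an unadjusted p under 0.05, as 3.09% of all genes did, and 0 an adjusted one (edgeR). *Rspo2* and *Rspo3*, R-spondins that strengthen Wnt signals by sparing Frizzled receptors, had the lowest p, and each had a difference of 0.65 ± 0.21 between the effects in males and females (unadjusted p = 0.00922 and 0.00853, adjusted p = 0.987, edgeR). *Rspo2* was at 12.4, 12.5 and 15.9 CPM in female WT and 9.66, 10.2 and 12.03 CPM in female *Nell-1+/6R* mice, whereas it was at 10.9, 11.8 and 12.7 CPM in male WT and 12.2, 14.9 and 16.2 CPM in male *Nell-1+/6R* mice. *Rspo3* was at 9.21, 12.1 and 13.2 CPM and 7.44, 8.80 and 9.20 CPM in the females, and at 9.37, 9.89 and 10.5 CPM and 11.02, 11.7 and 11.7 CPM in the males. The female groups did not overlap in either gene, with WT higher, and the male groups of *Rspo3* did not, with WT lower. In females the gap for *Rspo3* was only that from 9.20 to 9.21 CPM, and of the 62 genes 5 separated the female groups and 11 the male groups, where 6% and 10.4% of all genes did. The other 2 were *Wnt3a* (-1.77 ± 0.79) and *Nkd2* (0.63 ± 0.28).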

How the data were processed

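Total hippocampal RNA of 12 mice was sequenced, with 1 library each. Per the labels and the study's methods, the authors aligned reads to mm10 with HISAT2 2.1.0 and deposited raw counts per Entrez gene from featureCounts (2.0.1 per the labels), with no normalization. The strand setting of the counting is unknown here, and values of genes that overlap another annotated gene (*Wnt6*, *Fzd6*, *Axin1*, *Gsk3b*, *Wnt7b*, *Dvl1* and *Tcf7l1* among those named) are uncertain in that respect.

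The 17937 genes that reached 0.2 CPM in 2 or more mice were tested with edgeR 4.0.16 (TMM factors, glmQLFit, glmQLFTest, R 4.3.3) in a model of sex and genotype, or of 4 groups for the interaction and the effects in each sex. p-values were adjusted over all genes tested by the Benjamini-Hochberg method, and log2 fold changes are from edgeR with SE. The call rule (unadjusted p under 0.05, fold above 1.5) follows the study. limma-voom (limma 3.58.1) and DESeq2 1.42.0 were alternatives, with other factors, filters and covariates and each mouse left out. The study's methods name limma-voom and also quasi-likelihood F-tests. Permutation tests of correlations drew 100000 permutations and were two-sided. Names and coordinates are from RefSeq for GRCm38.p6, exon lengths from GENCODE M21. The fits were tested on simulated data.

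Values in every mouse, or the lowest, median and highest of 6, are given for *Wnt6*, members with an unadjusted p under 0.05, the member of each role (of 3 or more) with the highest level per kb, and the 3 highest and 3 lowest fold changes among members with a mean of at least 10 reads. The members and lists were chosen with earlier results of these data known. The libraries held 10834905 to 16016317 reads. A floor for a count of 0 covers counting error only. The labels number the replicates without stating that each is 1 animal, and the study's methods list 3 male and 3 female mice of each genotype. They were treated as separate mice, and p-values measure the spread between these samples, part of which may be technical. The titles of WT samples also hold the abbreviation for heterozygous, and their genotype field says WT.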

Additional observations from a re-analysis of the deposited data

Results flagged for a closer look

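In groups of 6 mice, 30 sets of values of the named members (15 members, 2 genotypes) were examined for a mouse that stood apart from the others, and chance flags about 1 in 20 such sets. The 7 values below stood apart. Among WT mice these were the highest *Wnt2* (8.73 CPM, female WT replicate 2), the lowest *Fzd2* (14.8 CPM, female WT replicate 3), the highest *Fzd6* (9.67 CPM, male WT replicate 3), the highest *Dvl1* (148 CPM, male WT replicate 1) and the highest *Sfrp1* (23.9 CPM, male WT replicate 3). Among *Nell-1+/6R* mice they were the highest *Sfrp1* (32.4 CPM) and the highest *Sfrp5* (4.06 CPM), both in female *Nell-1+/6R* replicate 1. The mice with the highest *Sfrp1* and *Sfrp5* are those with the 2 highest choroid plexus sums, 4707 and 5207 CPM.

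For 3 members the genotype effect differed between the sexes at an unadjusted p under 0.05 in edgeR, and for none at an adjusted one. The effect in males minus that in females was -2.32 for *Fzd10*, -0.25 for *Axin1* and -1.11 for *Sfrp4* on the log2 scale. *Fzd10* kept this p in 24 of 24 alternative fits, *Axin1* in 10 and *Sfrp4* in 6.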

How the results depend on the processing

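Members at an adjusted p under 0.05 numbered 0 by genotype, sex or interaction under each alternative run, and the median log2 fold change of the members stayed between -0.10 and -0.02, at most 0.052 from the reported one, where the SD of the members' median over mice was 0.062. The count past the thresholds by genotype, 0 here, was 1 with DESeq2 (*Fzd10*), 1 with limma-voom with sex and 1 without it (*Wnt6*), and 2 with no fold threshold. Without the 3 mice with the highest choroid plexus score, a setting added after seeing the data like the choroid plexus covariate and the scores in the sex and interaction fits, it was 3 (*Wnt11*, *Fzd10* and *Sfrp5*). Leaving out 1 mouse gave 0 to 3: 3 without female *Nell-1+/6R* replicate 1 (*Fzd10*, *Sfrp1*, *Sfrp5*), 2 without female *Nell-1+/6R* replicate 3 (*Wnt6*, *Fzd5*), and 1 without male *Nell-1+/6R* replicate 2 (*Wnt6*) or female WT replicate 1 or 3 (*Fzd10*). The count by sex, 1 (*Fzd10*), was 3 with the thalamus and habenula score and 2 without the 3 mice, and 1 to 2 with 1 mouse left out. The interaction count, 3 at an unadjusted p under 0.05 with no fold threshold (2 with a difference above 1.5-fold), was 1 with no filter, DESeq2 or limma-voom with sex, 6 with the thalamus and habenula score, and 1 to 7 with 1 mouse left out (7 without female *Nell-1+/6R* replicate 3). The cause was not tested.

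With the replicate number as a block the genotype count was 1 (*Wnt6*, -1.41, unadjusted p = 0.0455, edgeR) and the interaction count 1 (*Fzd10*). Deviations of same-numbered mice correlated at 0.17, -0.01 and 0.24 in females and 0.08, -0.20 and -0.04 in males, so the numbers were not taken as pairs. Of 722 fold changes of named members under alternatives, 622 kept their sign and their side of the threshold, 39 lost the threshold, 20 gained it and 41 changed sign, 0 of these at an unadjusted p under 0.05 (edgeR, DESeq2 or limma-voom). The threshold here was an unadjusted p under 0.05 for interactions, and this p with a fold change above 1.5 for the others. *Fzd6* by genotype, below that fold change, thus counts as unchanged. Its unadjusted p was under 0.05 in only 16 of 26 alternative fits. In 4 members the mean was under 10 reads per mouse. Counting error alone came to 33.0%, 35.7% and 34.0% of the WT mean for *Wnt1*, *Wnt8b* and *Wnt10b*. The SD between WT mice was 64.1%, 60.4% and 29.1% of the mean.

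Of the log2 fold changes that changed sign, *Dvl1* was at 0.0031 with DESeq2 size factors, 0.0034 with DESeq2, 0.00030 and 0.00050 with limma-voom with and without sex and 0.015 with the choroid plexus score. *Fzd10* in females was at 0.0023 with upper-quartile factors, 0.069 with limma-voom, 0.028 with the replicate block, 0.044 with the leptomeningeal score and 0.018 with the thalamus and habenula score. With the leptomeningeal score *Tcf7l1* was at -0.019, *Sfrp1* at 0.31 and *Sfrp5* at 0.037, and with the thalamus and habenula score *Sfrp1* was at 0.25. With the choroid plexus score *Gsk3b* was at -0.062, *Sfrp1* at 0.27 and *Sfrp5* at 0.063. Without the 3 mice *Wnt7b* was at 0.012, *Tcf7l1* at -0.024 and *Sfrp4* at -0.037. With 1 mouse left out, *Wnt7b* ran from -0.057 to 0.018, *Fzd10* in females from -0.24 to 0.31, *Dvl1* from -0.026 to 0.033, *Gsk3b* from -0.058 to 0.11, *Tcf7l1* from -0.010 to 0.089, *Sfrp1* from -0.77 to 0.22, *Sfrp4* from -0.021 to 0.40 and *Sfrp5* from -1.92 to 0.032.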

Other observations

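Among the 5 members with the longest merged exons, *Apc*, *Lrp6*, *Fzd3* and *Gsk3b* varied together over the 12 mice. *Apc* ran from 118 CPM in female *Nell-1+/6R* replicate 1 to 314 CPM in male *Nell-1+/6R* replicate 3, and *Gsk3b* was lowest and highest in the same 2 mice, at 110 and 206 CPM. On log2 CPM, Pearson's r with *Apc* was 0.987 for *Gsk3b* (rho 0.965), 0.936 for *Fzd3* (rho 0.944) and 0.816 for *Lrp6* (rho 0.832). Permutation p adjusted over the 4 relations was 2e-05, 2e-05 and 0.00237 for r and 2e-05, 2e-05 and 0.00204 for rho, where 1e-05 is the smallest unadjusted p that the permutations can give. Without the 2 mice farthest from the median of *Apc*, r was 0.976, 0.866 and 0.822. Within genotypes, r for *Gsk3b* was 0.996 in WT and 0.996 in *Nell-1+/6R* mice (n = 6 each). *Lrp5*, the fifth of these genes, went the other way, with r = -0.632 (adjusted permutation p = 0.0276) and rho = -0.622 (adjusted permutation p = 0.0346), with r = -0.408 in WT and -0.806 in *Nell-1+/6R* mice and -0.324 without the 2 farthest mice, so the size of r depended on those mice. The pattern was noticed in these data and then computed on them, so the adjustment over 4 relations does not cover the search among members. The log2 fold changes of these 5 genes between genotypes were -0.14 to 0.03, with 0 of 5 at an unadjusted p under 0.05 (edgeR).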
